A study of Mus musculus with 18 samples.

Results

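ADAMTS proteases are secreted zinc metalloproteases with thrombospondin repeats that cut large molecules of the extracellular matrix. They are made as inactive precursors, which proprotein convertases such as furin activate, and TIMP3 is their main tissue inhibitor. Several members are called aggrecanases because they cut aggrecan, the proteoglycan that gives cartilage its resistance to compression, and they are best known in joints for that activity. Here 8 members (Adamts1, Adamts2, Adamts4, Adamts5, Adamts9, Adamts10, Adamts12 and Adamts15), taken by gene symbol, were described of 19 ADAMTS genes among the 18585 genes in the table.

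RNA was measured in mouse forepaws by CEL-seq, which reads each RNA from a tag near its 3' end. The groups were 5 libraries of Sema3b-/- mice with arthritis, 5 of WT mice with arthritis, 4 of Sema3b-/- controls and 4 of WT controls, all on C57BL/6. Sema3b encodes a secreted semaphorin, and the series asks how arthritic joints differ with and without it. The labels name neither the arthritis model nor the age of the mice nor how the allele was made, and whole forepaws hold skin, muscle and bone besides joints. Titles of control libraries open with a word that no arthritis title has, so a difference in preparation cannot be told apart from arthritis.

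Libraries held 1732783 to 19464892 reads, and values are reads divided by a size factor, called normalized counts below. Sema3b itself was at 0 to 3.49 in Sema3b-/- arthritis, against 23.7 to 66.7 in WT arthritis, and at 0 to 7.20 in Sema3b-/- controls, against 44.2 to 67.5 in WT controls. Xist and Y-linked genes marked 4 of 5 Sema3b-/- arthritis libraries as female, 1 of 5 WT arthritis libraries, 2 of 4 Sema3b-/- controls and 4 of 4 WT controls. Markers of chondrocytes, synovial fibroblasts, muscle and epidermis were read in every library, with only the chondrocyte gene Matn3 at 0 in a library. In bulk tissue, fewer cells of a type and less RNA per cell cannot be told apart.

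The catalytic site of these proteases binds zinc through 3 histidines. The coding sequence of that site is shown for all 8 members because each of them holds it, and because the choice of members did not use it. Each stretch was read from GENCODE vM21 on GRCm38 (mm10), the histidine codons are in capitals, and each spans the junction of 2 exons, so that the coordinates include an intron.
Adamts1, chr16:85799191-85799545, minus strand, exons 3 and 4: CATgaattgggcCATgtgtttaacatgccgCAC
Adamts4, chr1:171253210-171253915, plus strand, exons 3 and 4: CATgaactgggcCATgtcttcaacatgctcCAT
Adamts15, chr9:30911255-30911690, minus strand, exons 2 and 3: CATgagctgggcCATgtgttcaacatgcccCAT
Adamts9, chr6:92905285-92908493, minus strand, exons 8 and 9: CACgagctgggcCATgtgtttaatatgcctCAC
Adamts5, chr16:85878015-85887826, minus strand, exons 2 and 3: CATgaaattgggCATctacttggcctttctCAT
Adamts2, chr11:50775403-50776134, plus strand, exons 7 and 8: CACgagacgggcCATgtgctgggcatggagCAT
Adamts10, chr17:33538157-33538279, plus strand, exons 9 and 10: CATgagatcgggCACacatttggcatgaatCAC
Adamts12, chr15:11241529-11255564, plus strand, exons 7 and 8: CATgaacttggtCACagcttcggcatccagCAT
The eighth codon is the glycine codon ggc in Adamts5, Adamts2, Adamts10 and Adamts12, and the asparagine codon aac or aat in Adamts1, Adamts4, Adamts15 and Adamts9. Adamts4 and Adamts15 share 30 of 33 bases here, the most of the 28 pairs of members, and Adamts9 and Adamts12 share 17, the fewest.

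Arthritis went with more RNA of the aggrecanase Adamts1 in both genotypes, with log2 differences of 1.10 in Sema3b-/- and 1.21 in WT forepaws. The WT call was lost in 7 of 18 fits that each left out a library, and in a fit that included sex (adjusted p = 0.187). Adamts15, another aggrecanase, was higher in Sema3b-/- arthritis than in Sema3b-/- controls, though edgeR did not call it (adjusted p = 0.0834). Over both genotypes together, Adamts4, the first aggrecanase to be purified from cartilage, rose as well, with a wide spread between libraries. In limma no member was called lower with arthritis, although edgeR and DESeq2 called Adamts2 lower in Sema3b-/- mice. When Sema3b-/- control replicate 4 was left out, 3 members (Adamts2, Adamts9 and Adamts10) were called lower over both genotypes. Of 18 fits that each left out a library, only that 1 called Adamts9 or Adamts10, and 2 called Adamts2. No member was called different between Sema3b-/- and WT forepaws in either condition by limma, edgeR or DESeq2.

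In counts, 1 of 8 members was called higher in WT arthritis than in WT controls, where 4.21% of 13809 genes tested were called (2.64% higher, 1.58% lower). In Sema3b-/- mice 2 of 8 were called higher, where 12.4% of genes were called (6.84% higher, 5.55% lower). For the mean of the 2 arthritis effects, which reuses the same libraries, 3 of 8 were called higher, where 23.5% of genes were called (12.6% higher, 10.9% lower). A call is an adjusted p under 0.05 in limma over all genes tested, on log2 of the value plus 1. The 0 calls lower stood beside 0, 1 and 1 members lower at an unadjusted p under 0.05 in WT, Sema3b-/- and both genotypes, 0, 1 and 0 called lower by edgeR, and 0, 1 and 1 by DESeq2, in each case Adamts2. Without Sema3b-/- control replicate 4, limma called 3 lower over both genotypes, Adamts2 (adjusted p = 0.0101), Adamts9 (adjusted p = 0.0200) and Adamts10 (adjusted p = 0.00457). Of 18 fits that each left out a library, 1 called Adamts9, the same 1 called Adamts10, and 2 called Adamts2. Such fits called 2579 to 3768 of the 13809 genes over both genotypes, in either direction. The median log2 fold change of the 8 members was 0.38 in WT, 0.40 in Sema3b-/- and 0.63 over both genotypes, against -0.02, -0.01 and -0.01 for all genes tested.

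**Figure D1:**
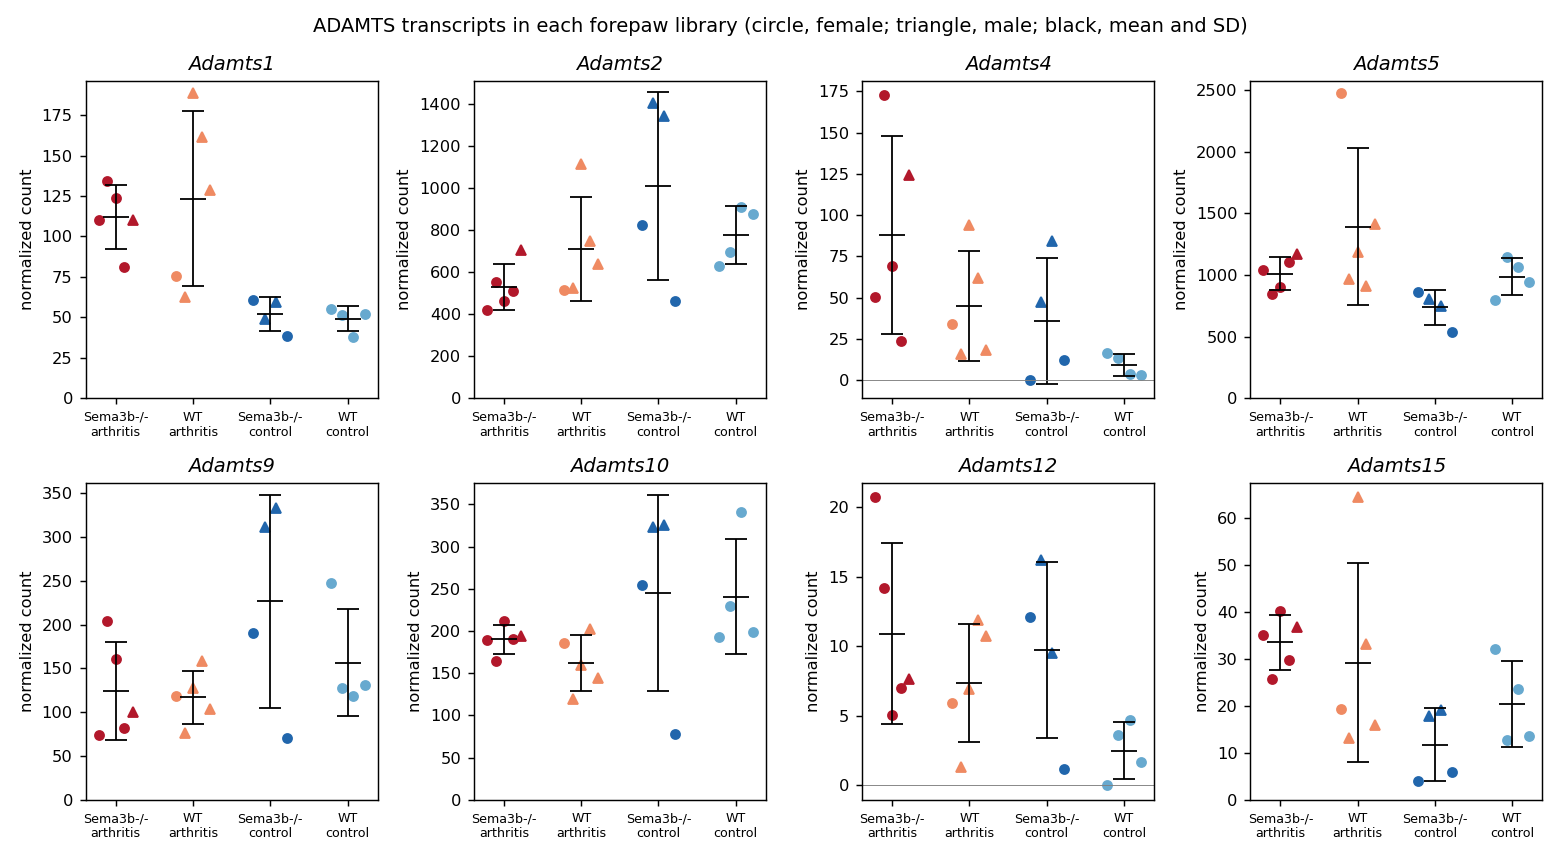
Normalized counts (vertical axes) of the 8 ADAMTS genes in each library, in the 4 groups along the horizontal axes; circles are female and triangles male libraries, and black bars give the mean and SD. Adamts1 lay at or above 62.8 in all 10 arthritis libraries and at or below 60.7 in all 8 controls, whereas arthritis and control libraries overlapped for every other gene.

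Adamts1 cuts aggrecan and versican and is known as a gene that inflammation and hormones induce. In Sema3b-/- mice it had 110.1, 135, 124, 81.0 and 110.4 normalized counts with arthritis, against 60.7, 49.2, 59.4 and 38.4 in controls. In WT mice it had 75.4, 62.8, 189, 162 and 129 normalized counts with arthritis, against 55.3, 51.4, 37.5 and 52.0 in controls. Every arthritis library was above every control, as for 1.33% of all genes tested, and the lowest arthritis value, WT arthritis replicate 2 at 62.8, lay just above the highest control at 60.7. The log2 fold change was 1.10 (SE 0.28, adjusted p = 0.0183) in Sema3b-/- mice and 1.21 (SE 0.28, adjusted p = 0.0243) in WT mice. Over both genotypes it was 1.15 (SE 0.20, adjusted p = 0.000682), a 2.22-fold difference, with 10 of 10 arthritis libraries above the control median. The 2 genotypes' effects differed by -0.11 (95% interval -0.94 to 0.73). These values rest on 15 to 203 reads a library.

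The call for Adamts1 over both genotypes held without each of the 18 libraries in turn (adjusted p 0.000126 to 0.00233). Within WT it was lost without WT arthritis replicates 3, 4 or 5 or without any WT control (adjusted p up to 0.0892), and in a fit that included sex (4 of 5 WT arthritis libraries and no WT control were male), where the log2 fold change was 0.98 (adjusted p = 0.187). Within Sema3b-/- it was lost without control replicate 4, at 0.96 (adjusted p = 0.0518). Among female libraries, the values were 81.0 to 135 in the 4 Sema3b-/- arthritis libraries and 38.4 and 60.7 in the 2 Sema3b-/- controls (log2 fold change 1.18, adjusted p = 0.0361), an alternative added after seeing the data.

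Markers of several cell types also moved with arthritis. Over both genotypes 12.6% of all genes tested were called higher and 10.9% lower. Among markers, 6 of 7 of macrophages and 5 of 6 of neutrophils were called higher. Summed macrophage markers took 0.119% to 0.202% of Sema3b-/- arthritis libraries and 0.0701% to 0.196% of WT arthritis libraries, against 0.0574% to 0.103% of Sema3b-/- controls and 0.0797% to 0.0964% of WT controls. WT arthritis replicates 1 and 2, with the lowest Adamts1 of the arthritis libraries, also had the lowest macrophage shares of them, 0.0766% and 0.0701%. Neutrophil markers took 0.124% to 0.603% and 0.0455% to 0.564% of Sema3b-/- and WT arthritis libraries, against 0.0642% to 0.321% and 0.0630% to 0.105% of Sema3b-/- and WT controls. Chondrocyte (3 of 7), osteoblast (4 of 5), muscle (3 of 6) and epidermis (3 of 6) markers fell. Chondrocyte markers took 0.0164% to 0.0493% of Sema3b-/- and 0.0395% to 0.104% of WT arthritis libraries, against 0.0403% to 0.345% of Sema3b-/- and 0.109% to 0.161% of WT controls. Of 7 synovial fibroblast markers 2 rose, Pdpn (1.95 on the log2 scale, adjusted p = 0.000367) and Has1 (1.19, adjusted p = 0.00617), and the summed list took 0.681% to 0.969% of Sema3b-/- and 0.567% to 2.09% of WT arthritis libraries, against 0.565% to 1.09% of Sema3b-/- and 1.32% to 1.61% of WT controls. Endothelial Vwf and Tek (2 of 7), mural Myh11 (1 of 6) and adipocyte Lep (1 of 5) were also called lower. These few calls stand beside the 10.9% of all genes called lower. The part of any of these cells in the result was not tested.

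**Figure D2:**
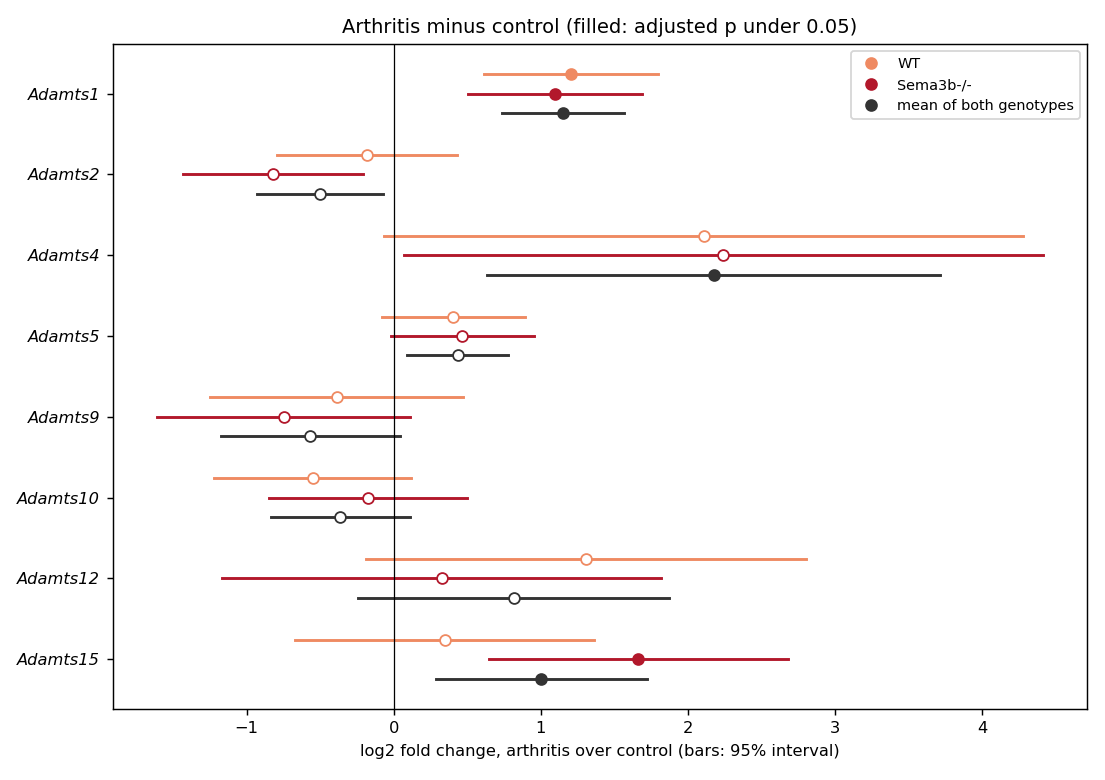
Log2 fold change of arthritis over control for each ADAMTS gene in WT, in Sema3b-/- and as the mean of both genotypes; points are estimates from the fit, filled where the adjusted p was under 0.05, and bars are 95% intervals. Adamts1 is filled 3 times, at 1.21, 1.10 and 1.15, with the narrowest intervals of the members that were called, and Adamts4 has the widest.

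Adamts4 cuts aggrecan and versican and is known to respond to interleukin-1 in cartilage and synovium. Arthritis libraries of Sema3b-/- mice had 50.5, 172, 69.4, 23.5 and 124 normalized counts, against 0, 47.5, 84.3 and 12.0 in controls. Arthritis libraries of WT mice had 34.0, 15.7, 94.3, 62.1 and 18.4 normalized counts, against 16.6, 13.5, 3.75 and 3.41 in controls. All 10 arthritis libraries were above the median of the 8 controls, but 7 of them were at or below Sema3b-/- control replicate 3. On the log2 scale the difference was 2.24 (SE 1.03, adjusted p = 0.162) in Sema3b-/- mice, 2.11 (SE 1.03, adjusted p = 0.249) in WT mice and 2.17 (SE 0.73, adjusted p = 0.0398) over both genotypes.

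The Adamts4 estimate in Sema3b-/- mice depended on which Sema3b-/- controls were kept. Replicate 1, the shallowest library, had no read, which allows up to 12.1 normalized counts there. Without it the log2 fold change in Sema3b-/- mice was 0.93 and that over both genotypes 1.52 (adjusted p = 0.0456), and with replicate 3 left out the first of these was 3.07. In Sema3b-/- mice count models gave 1.18 (edgeR) and 1.25 (DESeq2), neither of which was called. Over both genotypes edgeR gave 1.73 (adjusted p = 0.0382) and DESeq2 1.76 (adjusted p = 0.00655), and both were called. Replicates 2 and 3, the male Sema3b-/- controls and the controls with the most Adamts4, also had the highest shares of chondrocyte markers of all libraries, 0.345% and 0.273%, against 0.0403% to 0.161% in the other 6 controls. Their osteoblast markers took 0.194% and 0.180%, against 0.0263% to 0.113% in the other 6. Whether cell makeup or sex had a part in this was not tested. With female libraries only, an alternative added after seeing the data, the log2 fold change in Sema3b-/- mice was 4.12 (adjusted p = 0.0426). Its 2 controls were at 0 and 12.0. The call over both genotypes was lost in 9 of 18 fits that each left out a library, 3 from Sema3b-/- arthritis (replicates 2, 3 and 5), 3 from WT arthritis (1, 3 and 4), Sema3b-/- control replicate 4 and WT control replicates 3 and 4, and in the fit with sex (1.69, adjusted p = 0.0883).

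Adamts15 also cuts versican and aggrecan. In Sema3b-/- mice it had 35.0, 25.6, 40.2, 29.6 and 36.8 normalized counts with arthritis, against 4.05, 17.9, 19.0 and 6.00 in controls. In WT mice it had 19.2, 13.1, 64.4, 33.2 and 15.8 normalized counts with arthritis, against 32.1, 12.6, 23.5 and 13.6 in controls. The Sema3b-/- groups did not overlap, as for 7.13% of all genes tested in that direction, whereas the WT groups did, with 3 of 5 arthritis libraries above the control median. Arthritis minus control on the log2 scale was 1.66 (SE 0.48, adjusted p = 0.0323) in Sema3b-/- mice and 0.35 (SE 0.48, adjusted p = 0.710) in WT mice, and 1.00 (SE 0.34, adjusted p = 0.0405) over both genotypes.

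The difference between the 2 genotypes in the arthritis effect on Adamts15 was 1.32 (SE 0.68, 95% interval -0.12 to 2.75, unadjusted p = 0.0695, adjusted p = 0.975), so the effects were not shown to differ. Counts were low, with 1 to 32 reads in Sema3b-/- controls and 27 to 53 in Sema3b-/- arthritis. The call in Sema3b-/- mice was lost with edgeR (1.37, adjusted p = 0.0834) and without arthritis replicates 1, 3 or 5 or control replicates 1 or 4 (adjusted p up to 0.0953). With female libraries only, an alternative added after seeing the data, the log2 fold change in Sema3b-/- mice was 2.48 (adjusted p = 0.0131). The female Sema3b-/- controls were at 4.05 and 6.00 normalized counts, on 1 and 5 reads. Over both genotypes the call was lost in 11 of 18 fits that left out a library (adjusted p up to 0.0822), with edgeR (adjusted p = 0.0572), with no filter (adjusted p = 0.0513) and with sex as a term (0.79, adjusted p = 0.0978). The 11 libraries were Sema3b-/- arthritis 1, 3, 4 and 5, WT arthritis 3 and 4, Sema3b-/- control 1 and 4, and WT control 2, 3 and 4.

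Adamts5 is the aggrecanase on which loss of cartilage aggrecan in mouse models of arthritis chiefly depends. Sema3b-/- libraries with arthritis had 1038, 843, 902, 1105 and 1168 normalized counts, against 862, 804, 748 and 538 in controls. WT libraries with arthritis had 2479.5, 963, 1190.0, 912 and 1417 normalized counts, against 797, 1142, 1065 and 946 in controls. All 10 arthritis libraries were above the median of 833 of all controls, yet the groups overlapped in both genotypes. Against the control median of the same genotype, 5 of 5 Sema3b-/- and 3 of 5 WT arthritis libraries were above. Over both genotypes the log2 fold change was 0.44 (SE 0.16, adjusted p = 0.0605), with 0.46 in Sema3b-/- mice (adjusted p = 0.195) and 0.41 in WT mice (adjusted p = 0.319). It was called with edgeR (0.49, adjusted p = 0.0447) and DESeq2 (0.48, adjusted p = 0.0375), and in limma without WT arthritis replicate 2 or 4. WT arthritis replicate 1, the highest library at 2479.5, also had the highest share of synovial fibroblast markers of any library, 2.09%, and the highest share of mitochondrial reads, 39.4%, and their part in its value was not tested.

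Adamts9 cuts versican and aggrecan and is the vertebrate member closest to the worm protease GON-1. Values in Sema3b-/- mice were 73.9, 205, 161, 81.9 and 100.02 normalized counts with arthritis, against 190.2, 312, 334 and 70.8 in controls. Values in WT mice were 118, 76.3, 128, 158 and 104 normalized counts with arthritis, against 248, 128, 118 and 131 in controls. The groups overlapped in both genotypes, and 2 of 10 arthritis libraries were above the control median. The difference over both genotypes was -0.57 on the log2 scale (SE 0.29, adjusted p = 0.158).

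Adamts2 removes the amino-terminal propeptide of fibrillar procollagens. Arthritis libraries of Sema3b-/- mice had 419, 551, 463, 508 and 705 normalized counts, against 825, 1407, 1342 and 461 in controls. Arthritis libraries of WT mice had 513, 522, 1116, 748 and 638 normalized counts, against 627, 697, 910.0 and 876 in controls. Of 10 arthritis libraries, 1 was above the control median and the ranges overlapped. Its log2 fold change was -0.82 (SE 0.29, adjusted p = 0.0707) in Sema3b-/- mice, -0.18 (SE 0.29, adjusted p = 0.750) in WT mice and -0.50 (SE 0.20, adjusted p = 0.0822) over both genotypes. Adamts2 was called lower in Sema3b-/- mice with edgeR (-0.92, adjusted p = 0.0480) and DESeq2 (-0.93, adjusted p = 0.0191), and over both genotypes with DESeq2 (-0.54, adjusted p = 0.0464), with sex as a term (-0.69, adjusted p = 0.00672) and without WT arthritis replicate 3 (-0.59, adjusted p = 0.0383).

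Adamts10 binds fibrillin microfibrils, and in humans its loss causes Weill-Marchesani syndrome. In Sema3b-/- mice it had 189, 165, 212, 189.9 and 194 normalized counts with arthritis, against 255, 323, 325 and 78.0 in controls. In WT mice it had 186, 119.5, 159.8, 202 and 144 normalized counts with arthritis, against 193, 230.1, 341 and 199 in controls. No arthritis library was above the median of the 8 controls, and Sema3b-/- control replicate 4 was the lowest of all libraries. The log2 fold change over both genotypes was -0.36 (SE 0.23, adjusted p = 0.249).

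Sema3b-/- control replicate 4 stood low for several members at once. It had the lowest value of the 8 controls for Adamts2, Adamts5, Adamts9 and Adamts10. Its epidermis markers took 3.67% and its muscle markers 2.40% of the library, against 0.814% to 1.63% and 1.12% to 2.10% in the other 7 controls. Without it, Adamts2 (-0.67, adjusted p = 0.0101), Adamts9 (-0.81, adjusted p = 0.0200) and Adamts10 (-0.60, adjusted p = 0.00457) were all called lower over both genotypes, and so were they in Sema3b-/- mice, at -1.15, -1.23 and -0.66. The same fit ended the calls over both genotypes for Adamts4 (2.14, adjusted p = 0.0651) and Adamts15 (0.90, adjusted p = 0.0772) and left that for Adamts1 (1.08, adjusted p = 0.00168). No other fit leaving out a library called Adamts9 or Adamts10. The part of skin and muscle in Sema3b-/- control replicate 4 was not tested.

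Adamts12 cuts cartilage oligomeric matrix protein. Sema3b-/- libraries with arthritis had 20.7, 14.2, 5.03, 6.97 and 7.64 normalized counts, against 12.1, 16.2, 9.50 and 1.20 in controls. WT libraries with arthritis had 5.91, 1.31, 6.90, 11.9 and 10.8 normalized counts, against 0, 3.61, 4.69 and 1.71 in controls. In WT mice 4 of 5 arthritis libraries were above every control, and in Sema3b-/- mice the groups overlapped. The log2 fold change was 0.33 (SE 0.71, adjusted p = 0.801) in Sema3b-/- mice, 1.31 (SE 0.71, adjusted p = 0.295) in WT mice and 0.82 (SE 0.50, adjusted p = 0.243) over both genotypes. No library had more than 29 reads of it.

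**Figure D3:**
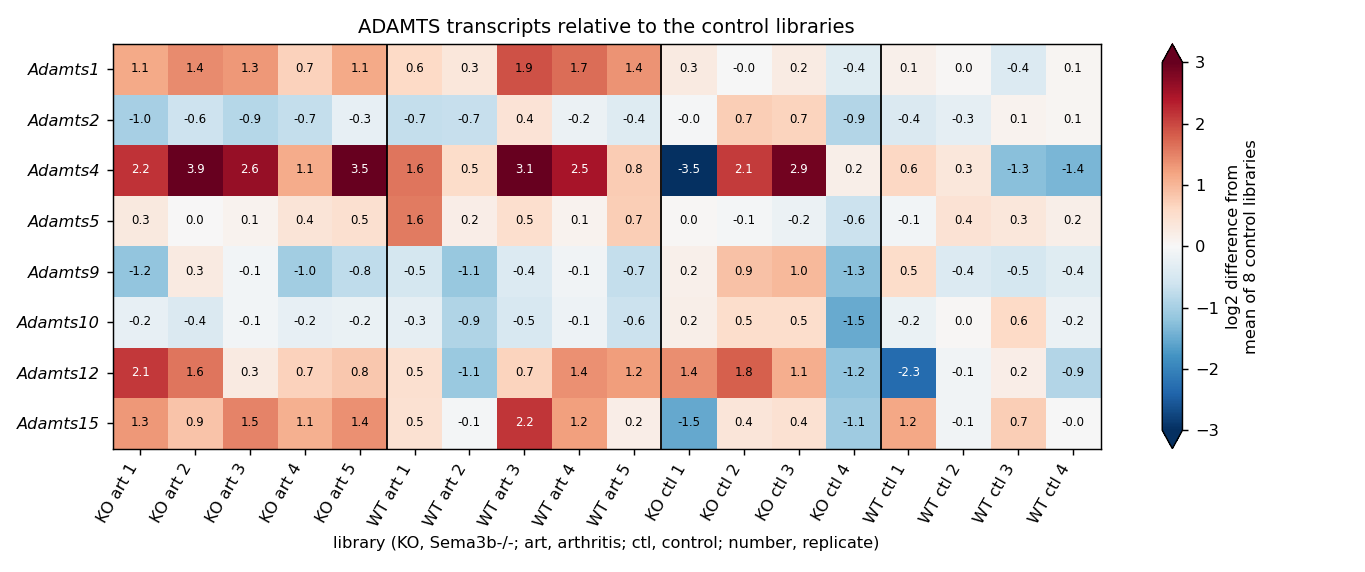
Each cell gives the log2 difference of a library (columns, in 4 groups set apart by lines) from the mean of the 8 control libraries for an ADAMTS gene (rows); red is higher and blue lower. The Adamts1 row runs from 0.3 to 1.9 in the 10 arthritis libraries, and the column of Sema3b-/- control replicate 4 is at or below 0.2 for every gene.

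Set in order of their means, neighbouring groups were apart in Adamts1 between Sema3b-/- arthritis and Sema3b-/- controls. WT arthritis averaged 123 ± 54.1 normalized counts and Sema3b-/- arthritis 112 ± 20.1 (SD, n = 5 each), with overlapping ranges, and Sema3b-/- controls 51.9 ± 10.4 and WT controls 49.1 ± 7.87 (SD, n = 4 each), also overlapping. For each of the other 7 members, every pair of neighbouring groups in the order overlapped, although Adamts15 did not overlap between Sema3b-/- arthritis and Sema3b-/- controls, which are not neighbours in its order. Arthritis libraries lay wholly above controls for 2 of 8 members in Sema3b-/- mice, where 7.13% of all genes tested did so, and for 1 of 8 in WT mice, where 5.82% did so. Sema3b-/- arthritis had the highest mean for Adamts4, Adamts12 and Adamts15, WT arthritis for Adamts5, and Sema3b-/- controls for Adamts2, Adamts9 and Adamts10.

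Loss of Sema3b was set against WT in each condition to ask whether it changes these transcripts. In arthritis 0 of 8 members were called by limma, edgeR or DESeq2 and 0 had an unadjusted p under 0.05 in limma, where 0.0217% of all genes tested were called and 8.97% had such a p. In controls the same counts were 0, where 0.0145% of genes were called and 5.87% had such a p. In the authors' deposited table, Sema3b-/- over WT controls was 2.00 for Adamts4 and 1.94 for Adamts12, each with an unadjusted p under 0.05 and an adjusted p of 1. For the interaction they were again 0, where 0% of genes were called by limma, 663 of 13809 had an unadjusted p under 0.05, edgeR called 0 and DESeq2 8. The members' log2 fold changes ran from -0.38 (Adamts2) to 0.97 (Adamts4) in arthritis and from -0.90 (Adamts15) to 1.55 (Adamts12) in controls.

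The intervals show how much could have been missed. For Adamts1 the 95% interval of Sema3b-/- over WT was -0.59 to 0.52 in arthritis and -0.55 to 0.69 in controls, so a change beyond about 0.7 on the log2 scale lies outside both. For Adamts4 the intervals were -1.08 to 3.01 and -1.46 to 3.12, and for Adamts12 -0.84 to 1.98 and -0.02 to 3.12, which leave room for large differences. Adamts5 was at -0.37 (interval -0.83 to 0.09) in arthritis and -0.43 (interval -0.94 to 0.08) in controls. Sex was unequal between the genotypes, with 1 male among 5 Sema3b-/- and 4 among 5 WT arthritis libraries.

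**Figure D4:**
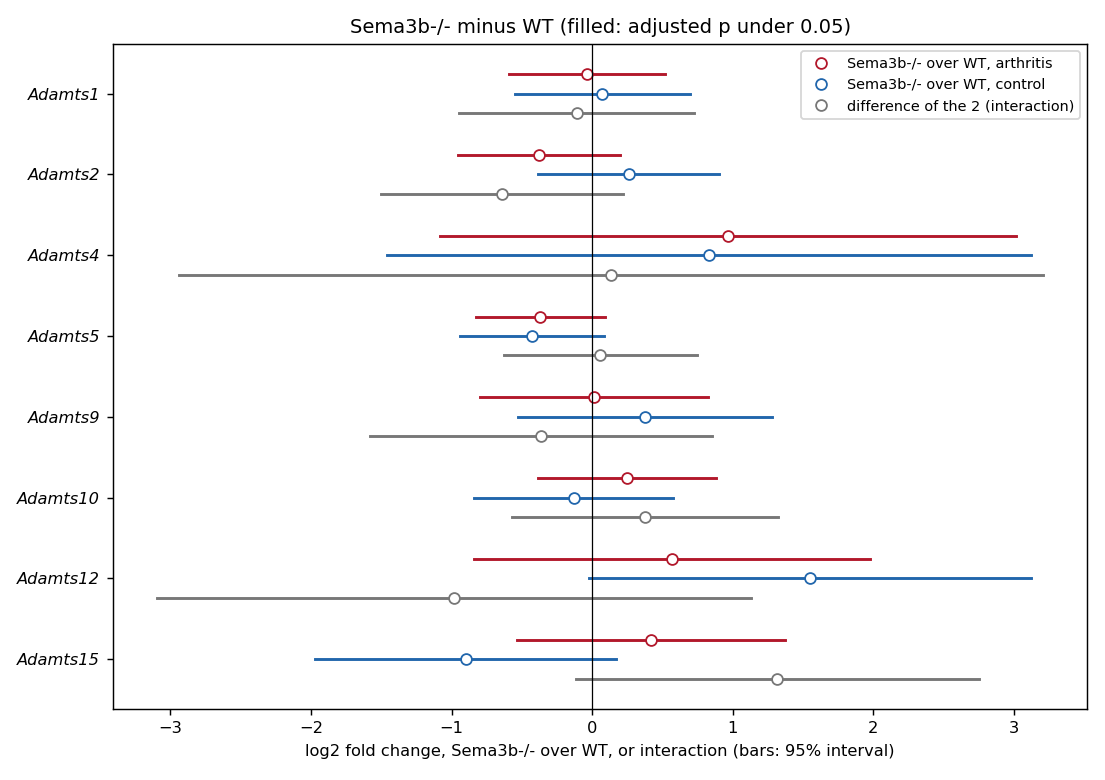
Log2 fold change of Sema3b-/- over WT for each ADAMTS gene in arthritis and in controls, and the difference of the 2 (interaction); bars are 95% intervals, and open points mark adjusted p-values of 0.05 or more. All 24 points are open, and the Adamts15 interaction of 1.32 has an interval of -0.12 to 2.75.

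Among the remaining family, 8 of 11 other ADAMTS genes were tested. Over both genotypes 1 of them fell and 0 rose (median log2 fold change -0.14), a share near that of all genes, of which 10.9% were called lower and 12.6% higher. That was Adamts19, at 0 to 11.1 normalized counts (median 2.48) in arthritis, against 5.53 to 27.1 (median 12.3) in controls, or -1.89 on the log2 scale (SE 0.52, adjusted p = 0.0153). Of 7 ADAMTS-like genes, which keep the thrombospondin repeats and lack the protease domain, 5 were tested and 3 fell (median -0.56). Within each genotype alone, 1 of the 5 was called, Adamtsl4. Adamtsl4, known in humans for lens dislocation and linked to fibrillin, had 89.3 to 159 normalized counts in arthritis, against 138 to 242 in controls (-0.73, SE 0.14, adjusted p = 0.00201). Thsd4 (-0.99, adjusted p = 0.0234) and Adamtsl5 (-0.56, adjusted p = 0.0373) were the others, and the Adamtsl5 call was lost in 11 of 18 fits that left out a library (Sema3b-/- arthritis 1, 2 and 5, WT arthritis 2, 4 and 5, Sema3b-/- control 1, 3 and 4, WT control 1 and 4; adjusted p up to 0.0855) and, like that of Thsd4 (adjusted p = 0.0554), with sex as a term (adjusted p = 0.0891).

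Among proteoglycans and link proteins that ADAMTS proteases cut or meet, 1 of 5 tested rose over both genotypes, where 12.6% of all genes were called higher. Vcan, encoding versican, had 218 to 954 normalized counts (median 445) in arthritis, against 159.7 to 335 (median 228) in controls, or 1.02 on the log2 scale (SE 0.22, adjusted p = 0.00403). Acan, encoding aggrecan, had 55.7 to 415 (median 148) in arthritis, against 46.8 to 569.9 (median 186) in controls, and its difference of -0.25 on that scale (SE 0.50, adjusted p = 0.744) did not pass the test. Of 5 procollagen genes 2 fell, Col2a1 of cartilage (-2.19, SE 0.64, adjusted p = 0.0224) and Col1a1 of bone and skin (-1.54, SE 0.48, adjusted p = 0.0304). In the same comparison 10.9% of all genes were called lower. Col2a1 is also 1 of the 7 chondrocyte markers, and the Col1a1 call was lost without Sema3b-/- control replicates 2 or 3 or WT control replicates 3 or 4 (adjusted p up to 0.0603). Fbn1, encoding fibrillin-1, was the 1 of 5 other matrix genes that rose, beside the same 12.6% of all genes, by 0.74 (SE 0.19, adjusted p = 0.00958). Within a genotype, Vcan and Col2a1 were called in Sema3b-/- mice only, and Col1a1 and Fbn1 in neither.

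The inhibitors moved in opposite directions. Of 6 genes of inhibition and clearance, 1 rose and 2 fell over both genotypes, where 12.6% of all genes were called higher and 10.9% lower. Timp3 fell to 1781 to 6180.3 normalized counts (median 2739) in arthritis, against 3244 to 5340.0 (median 3951) in controls (-0.62, SE 0.18, adjusted p = 0.0215), with its highest value in WT arthritis replicate 1. A2m, encoding the broad protease trap alpha-2-macroglobulin, fell by 2.60 (SE 0.40, adjusted p = 0.000318). In WT mice A2m had 4.80 to 17.7 normalized counts with arthritis, against 123 to 242 in controls. In Sema3b-/- mice its ranges overlapped, at 8.34 to 73.2 with arthritis and 13.2 to 79.5 in controls. Timp1, which inhibits matrix metalloproteases and is a weak inhibitor of ADAMTS enzymes, rose by 2.28 (SE 0.43, adjusted p = 0.00191). Within a genotype, A2m was called in WT mice only, Timp1 in Sema3b-/- mice only and Timp3 in neither. Lrp1, the receptor that clears ADAMTS4 and ADAMTS5 from the matrix, was at -0.20 (adjusted p = 0.197).

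Activators and inducers also changed over both genotypes, where 12.6% of all genes were called higher and 10.9% lower. Of 5 genes of activation, Pcsk5 rose by 1.72 (SE 0.33, adjusted p = 0.00211), while Pcsk6, which can activate aggrecanase precursors, fell by 1.39 (SE 0.28, adjusted p = 0.00249) and Furin fell by 0.45 (SE 0.12, adjusted p = 0.0115). Of 5 cytokine genes tested, known as inducers of aggrecanases, 3 rose. Il1b had 35.5 to 937 normalized counts (median 332) in arthritis, against 2.37 to 35.4 (median 16.1) in controls (4.19, SE 0.62, adjusted p = 0.000353). Il6 had 0 to 57.5 (median 13.0) in arthritis, against 0 to 3.60 (median 0) in controls (3.12, SE 0.70, adjusted p = 0.00442). Osm rose by 2.38 (SE 0.49, adjusted p = 0.00256). Within a genotype, Il1b was called in each, Pcsk5, Pcsk6, Il6 and Osm in Sema3b-/- mice only, and Furin in neither. WT arthritis replicates 1 and 2 had the lowest Il1b of the arthritis libraries, 35.5 and 45.8, and also the lowest Adamts1. A link between these transcripts was not tested.

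**Figure D5:**
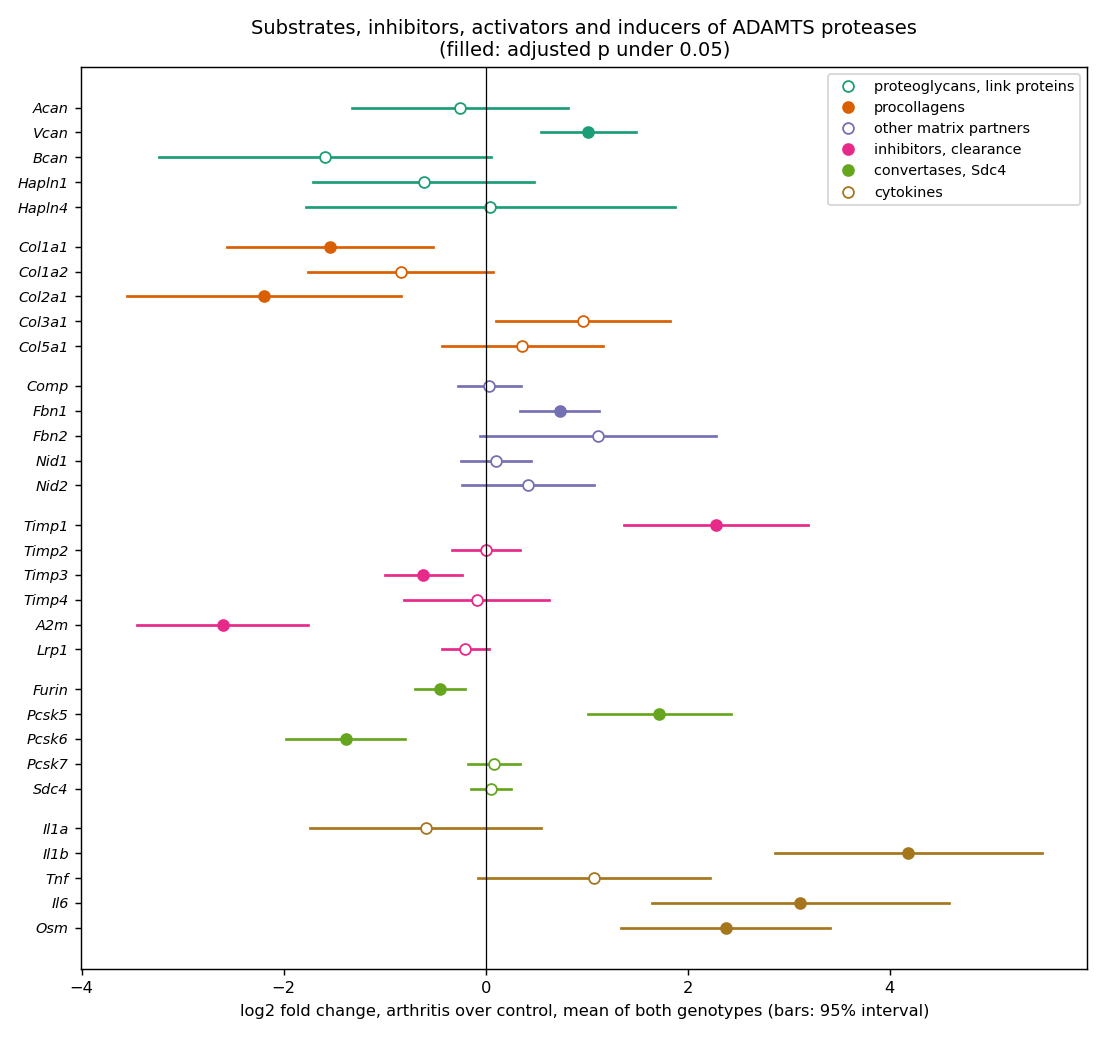
Log2 fold change of arthritis over control, as the mean of both genotypes, for substrates, inhibitors, activators and inducers of ADAMTS proteases, grouped by colour; points are filled where the adjusted p was under 0.05, and bars are 95% intervals. Il1b stands farthest right at 4.19, A2m farthest left at -2.60, and Acan spans 0.

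Deviations from the group means were compared among the 18 libraries to describe which members varied together. Adamts4 and Adamts15 had the highest correlation of the 28 pairs (r = 0.72, rho = 0.73), followed by Adamts10 and Adamts12 (r = 0.71, rho = 0.53) and Adamts2 and Adamts10 (r = 0.70, rho = 0.52). Adamts1 and Adamts5, which lie next to each other on chromosome 16, 53059 bases apart on the minus strand, had the lowest (r = -0.23, rho = -0.25). These are descriptions, since the libraries share depth and cell makeup across genes. Sema3b-/- control replicate 4 was the lowest Sema3b-/- control for Adamts2, Adamts10 and Adamts12, and its part in their correlations was not tested.

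By the same measure, among 6905 tested genes with a median of at least 100.4 normalized counts, the genes most like each member were named. They were Lgmn (r = 0.90), Gpm6b and Galnt10 for Adamts1, Snd1 (r = 0.94), Tnfrsf23 (r = 0.92) and Zswim8 for Adamts4, and Kidins220 (r = 0.83), Gja1 and Bmp1 for Adamts15. They were Cp (r = 0.91), Fgl2 and Cpq for Adamts5, Gpr153 (r = 0.86), Wisp1 and Mta2 for Adamts9, and Serpinf1 (r = 0.95), Tmem119 and Nlgn2 for Adamts2. For Adamts10 they were Pds5b (r = 0.83), Ptprd and Nrm, and for Adamts12 Sepn1 (r = 0.86), Stx2 and Zfp637. By rank the Adamts10 correlations were weaker, with rho of 0.72, 0.55 and 0.40. All of these genes were picked as the highest r among the 6905.

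Of the 8 members, Adamts1, Adamts2, Adamts9 and Adamts12 matched a promoter in the RefSeq table (GRCm38.p6), and Adamts4, Adamts5, Adamts10 and Adamts15 did not. The promoter of Adamts1 is shown because that gene alone was called in each genotype; it runs from 250 bases before to 50 after the start, with a TATA box in capitals.
Adamts1 promoter, chr16:85803064-85803363, minus strand: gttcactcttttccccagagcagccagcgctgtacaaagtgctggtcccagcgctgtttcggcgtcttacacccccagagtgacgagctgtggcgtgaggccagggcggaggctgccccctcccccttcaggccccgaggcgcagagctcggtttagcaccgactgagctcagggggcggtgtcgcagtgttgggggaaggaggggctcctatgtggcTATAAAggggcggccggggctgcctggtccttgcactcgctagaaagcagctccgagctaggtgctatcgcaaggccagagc
The TATA box (TATAAA) begins 32 bases before the start, and 13.62% of 32851 mouse promoters of this length hold these letters on either strand. Adamts1 also holds 3 GC boxes (GGGCGG, in 35.66% of promoters), at 147, 76 and 25 bases before the start, and a match to the loose NF-kB pattern GGGNNNNNCC (in 50.79%). Of the 4 promoters, Adamts2 held 5 GC boxes, Adamts9 held 1 and Adamts12 held none. An AP-1 match (TGANTCA, in 7.81%) or a CRE match (TGACGTCA, in 1.79%) was in none of the 4 windows. In Adamts2 and in Adamts9 a GC box and an NF-kB match share letters, and in Adamts12 2 NF-kB matches overlap.

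On mm10, Adamts1 lies at chr16:85793827-85803113 and Adamts5 at chr16:85856173-85901828, both on the minus strand. Adamts4 lies at chr1:171250421-171260637 on the plus strand. Adamts15, at chr9:30899155-30922452 on the minus strand, is 20109 bases from Adamts8. Adamts2 lies at chr11:50602084-50807573, Adamts10 at chr17:33524204-33553782 and Adamts12 at chr15:11064790-11349231, each on the plus strand. Adamts9, at chr6:92772699-92943492 on the minus strand, overlaps A730049H05Rik and Gm15737. No other coding gene overlaps the 3' end of a member, where the tags are read.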

How the data were processed

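RNA of 18 forepaws was sequenced by CEL-seq. Per the submitters' processing notes the authors used BWA, mm10 and DESeq2 1.32; for the counter, annotation and molecular barcodes the sources used here give nothing. The deposited table holds signal, a count divided by a size factor, and the authors' log2 fold changes, p-values and scores. Whole reads were recovered (100% of values within 0.02 of a read). Names of 26 genes turned to dates were restored. Sema3b-/- control replicates 3 and 4 share an inner title name, and a column headed Ct is Sema3b-/- arthritis replicate 5 by its title and label. Genes with at least 10 in at least 4 libraries (13809) were fitted in limma 3.58.1 (trend, robust, R 4.3.3) on log2(value + 1), as 4 group means, with Benjamini-Hochberg adjustment. edgeR 4.0.16 and DESeq2 1.42.0 on recovered reads, other scalings, pseudocounts, filters, a sex term and left-out libraries were alternatives. Scripts were tested on simulated data. Labels do not state separate animals, so p-values measure the spread between libraries. The 32 pairs of libraries within groups differed by more than read sampling gives (chi-square over its degrees of freedom, 9.59 to 197). All 8 members are named, with list genes that were called. Members and lists were chosen with earlier results of these data known. Il17a is not in the table, and Cnmd and Adgre1 were read as Lect1 and Emr1. Limits from a count of 0 are 3 reads and cover counting error only.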

Additional observations from a re-analysis of the deposited data

Results flagged for a closer look

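Adamts9 in WT control replicate 1 was at 248 normalized counts, far from the other WT controls at 118 to 131, where its gap exceeded the limit for 4 values. It was the 1 flag in 32 groups of libraries tested, and chance flags about 1 group in 20.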

How the results depend on the processing

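Adamts12, Adamts15 and Adamts4 rest on 0 to 29, 1 to 56 and 0 to 182 reads a library, and how far depth or the spread between libraries limits them was not tested. No scaling moved the median of all genes by over 0.1. Genes called in WT arthritis numbered 582 (DESeq2 1292, only the 2 groups compared 271, sex term 133; 149 to 1112 leaving out a library). In Sema3b-/- arthritis they numbered 1710 (2 groups 998, female libraries only, added after seeing the data, 1025; 975 to 1913), over both genotypes 3247 (2579 to 3768), for Sema3b-/- over WT in controls 2 (DESeq2 5, no filter 1; 0 with a pseudocount of 0.5, a filter of 50, 2 groups or the sex term; 0 to 3), in arthritis 3 (DESeq2 92, 2 groups 1; 2 to 6) and for the interaction 0 (DESeq2 8; 0 in every fit leaving out a library). The cause was not tested.

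Libraries of the same replicate number were not treated as pairs. Of 25 pairs of the same number, 7 had deviations correlated over 0.1 (r -0.66 to 0.41), and 3 of 18 libraries were closest to their own number. Depth and cell makeup also enter these correlations, so they cannot decide whether libraries of the same number were handled together. With the number as a replicate block, 196 genes were called in WT arthritis, 1020 in Sema3b-/- arthritis and 1 in Sema3b-/- over WT controls. Under the block Adamts1 was 1.18 in WT (adjusted p = 0.0811) and 1.07 in Sema3b-/- (adjusted p = 0.0546), and over both genotypes Adamts4 was 2.19 (adjusted p = 0.0752), Adamts15 1.06 (adjusted p = 0.0531), Thsd4 -0.98 (adjusted p = 0.0552) and Timp3 -0.56 (adjusted p = 0.0612).

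Calls were lost with only the 2 groups compared for Adamts1 in WT (adjusted p = 0.0788) and Adamts15 in Sema3b-/- (adjusted p = 0.0533), and gained with DESeq2 for Adamts4 in WT (2.27, adjusted p = 0.0362). Directions turned only for estimates that were not called. With the sex term they became -0.33 for Adamts15 in WT arthritis, 0.13 and 0.0803 for Adamts1 and Adamts2 in Sema3b-/- over WT arthritis, -0.0703, -0.12 and -0.14 for Adamts1, Adamts2 and Adamts4 in Sema3b-/- over WT controls, and 0.20, 0.20, -0.17 and 0.15 for the interactions of Adamts1, Adamts2, Adamts5 and Adamts9. With edgeR and DESeq2 they became 0.0331 and 0.0287 for Adamts10 in Sema3b-/- over WT controls, -1.09 and -1.02 for the Adamts4 interaction and -0.0348 and -0.0375 for that of Adamts5, with a pseudocount of 5 it became -0.0541 for the Adamts4 interaction, and with female libraries only 0.0336 and 0.41 for Adamts9 and Adamts10 in Sema3b-/- arthritis. Leaving out a library turned 10 estimates: Sema3b-/- over WT arthritis of Adamts1 (-0.25 to 0.15) and Adamts9 (-0.19 to 0.17), Sema3b-/- over WT controls of Adamts1 (-0.0489 to 0.21) and Adamts10 (-0.33 to 0.35), Sema3b-/- arthritis of Adamts10 (-0.66 to 0.0264) and Adamts12 (-0.32 to 0.66), and the interactions of Adamts1 (-0.32 to 0.0740), Adamts4 (-1.18 to 0.96), Adamts5 (-0.0855 to 0.29) and Adamts10 (-0.11 to 0.58). A filter of 50 gave no value for Adamts12 and Adamts15.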

Other observations

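The authors' deposited table also sets groups that differ in both genotype and condition against each other, which no comparison above does. With directions read from the group means, Sema3b-/- arthritis over WT control was 3.25 on the log2 scale for Adamts4 (adjusted p = 0.0235) and 1.19 for Adamts1 (adjusted p = 0.0319) in the authors' deposited table. WT arthritis over Sema3b-/- control was 1.27 for Adamts1 (adjusted p = 0.0339) and 0.92 for Adamts5 (adjusted p = 0.0521) in the authors' deposited table. For the comparisons within a genotype, the authors' deposited table gives Adamts1 at 1.13 in Sema3b-/- mice (adjusted p = 0.0457) and 1.33 in WT mice (adjusted p = 0.0282). That table gives Adamts15 at 1.37 in Sema3b-/- mice (adjusted p = 0.118) and Adamts4 at 2.27 in WT mice (adjusted p = 0.102), neither of them under 0.05 in the authors' deposited table.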
